A study of Mus musculus with 5 samples.

Results

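The cells compared here were preadipocytes, the stromal precursors of fat cells, of mouse inguinal white adipose tissue (iWAT) at postnatal day 7 (7 d) and day 14 (14 d). The study followed the stromal vascular fraction (SVF), the cells left after digestion of the tissue and removal of the floating adipocytes, from infancy through weaning with droplet single-cell RNA sequencing at 7, 14, 18, 21 and 28 d. Each age was 1 library from the pooled SVF of 2 male C57BL6/J mice, taken from 2 litters, with no treatment named in the labels, so an age was also a library, a digestion with collagenase VIII and a pool of animals, and these cannot be told apart. Removal of the inguinal lymph nodes was not intended, and immune cells therefore came with every library. Preadipocytes were chosen by 5 conditions on the counts of unique molecular identifiers (UMIs) of a cell: Col1a1, Col1a2 and Col3a1 together at least 2% of its UMIs, at least 1 UMI of Pdgfra, and no UMI of Ptprc, Pecam1 or Mki67, the genes of leukocytes, endothelium and dividing cells. These conditions held for 2418 of 15459 cells (15.6%) at 7 d and 1763 of 5768 cells (30.6%) at 14 d, which made 4181 of the 46684 cells of the series.

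Preadipocytes are fibroblast-like cells that build the collagen-rich matrix of the fat pad and can turn into adipocytes. They are commonly divided by their markers. Progenitors marked by Dpp4 and Pi16 lie in the fibrous layer around the lobules, and committed cells marked by Icam1 lie close to the vessels. Cells marked by F3 form a further group, which the paper, citing earlier work, describes as adipogenic. During suckling the mouse fat pad expands quickly, and its precursors leave a fetal programme that includes imprinted growth genes such as Igf2, H19 and Dlk1, an inhibitor of adipogenesis. Stromal cells also react within minutes to hours to injury and to enzymes, heat or cytokines, by switching on immediate-early transcription factors and then NF-κB target genes such as chemokines.

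The gated cells held a total of 29195357 UMIs at 7 d and 22764962 UMIs at 14 d, with medians of 11693.5 and 12706 UMIs and 3148 and 3431 genes per cell. All 10 preadipocyte markers on the list used were found in both libraries, but Pdgfra and the collagen genes among them were conditions of the gate and are no check. The markers of mature adipocytes summed to 1.34 counts per 1000000 UMIs (CPM) at 7 d and 0.791 CPM at 14 d. Few cells lay close to the collagen limit: 31 cells of 7 d and 7 cells of 14 d that met the other conditions had between 1.5 and 2% collagen UMIs, against 28 and 6 cells between 2 and 2.5%. The collagen genes of the gate took 7.56% of the UMIs of gated cells at 7 d and 12.1% at 14 d, which belongs to the choice of cells and is no result. The condition on Mki67 alone left out 280 cells (10.4%) at 7 d and 63 cells (3.45%) at 14 d. Of the cell barcodes, 24 occurred in both libraries, 1 of them among the gated cells of both. RNA of other cells was also counted in the preadipocytes: markers of erythroid cells summed to 1804 CPM at 7 d and 87.4 CPM at 14 d (1512 and 35.4 CPM in T cells), those of mural cells to 324 and 129 CPM (518 and 179.6 CPM in T cells), those of mast cells to 71.1 and 7.03 CPM, and those of T cells to 30.5 and 16.0 CPM. Not all such sums were lower at 14 d: those of B cell markers came to 604 and 744 CPM and those of macrophage markers to 14.6 and 17.1 CPM. The B cell set includes Ebf1, which is also on the list of adipogenic transcription factors, so its sum need not be RNA of B cells. As for RNA of stromal cells elsewhere, the level of 10 stromal genes in T cells was 1.63% of that in preadipocytes at 7 d and 0.637% at 14 d, as the median over the genes.

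The level of a gene is given below in CPM, the sum of its UMIs over the gated cells of a library per 1000000 UMIs in all. With 1 library at each age no test between the ages was possible and none was made. Intervals are exact at 95% and cover counting error only, not the differences between animals, digestions or libraries. Of the 9657 genes with a mean of at least 5 CPM over both libraries, 584 (6.05%) were at least 2-fold higher at 14 d and 328 (3.40%) at least 2-fold higher at 7 d. None of the 9657 was without UMIs in either library, and the called genes had at least 240 UMIs in all. The median ratio of 14 d over 7 d was 1.13-fold, 0.18 on the log2 scale. The excess of genes higher at 14 d followed this centre, since with all ratios divided by their median 284 genes were higher at 14 d and 477 at 7 d, so that the share higher at 14 d went from 64.0 to 37.3%. Malat1 alone, a nuclear RNA, took 2.17% of the UMIs at 7 d and 0.695% at 14 d. Close to the limit on fold, Tef was 1.99-fold and Sfrp2 2.04-fold higher at 14 d.

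T cells of the same libraries, 6842 cells at 7 d and 1819 cells at 14 d chosen by at least 2 UMIs of Cd3d, Cd3e and Cd3g and less than 2% collagen UMIs, served to mark shifts that were not particular to preadipocytes. Of the 9657 genes tested in preadipocytes, 7795 also had a mean of at least 5 CPM in T cells and could be read there. In T cells 872 of these (11.2%) were at least 2-fold higher at 14 d and 347 (4.45%) at least 2-fold higher at 7 d. Of the 584 genes higher at 14 d in preadipocytes, 321 could be read in T cells, and 175 of them (54.5%) were past 2-fold the same way there. Of the 328 genes higher at 7 d, 269 could be read, and 107 (39.8%) were past 2-fold the same way, 16 of them at levels that spill-over of preadipocyte RNA could reach (up to 5 times the share found for the stromal genes). B cells of the same libraries had most of these shared shifts as well, 125 of 163 readable genes that were higher at 14 d and 80 of 104 that were higher at 7 d. Without the shared genes, 409 genes were higher at 14 d and 221 at 7 d. In the text below a gene is called shared when it had a mean of at least 5 CPM in T cells and moved past 2-fold the same way there. Genes below this level in T cells were never marked as shared, whichever way they moved there.

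**Figure D1:**
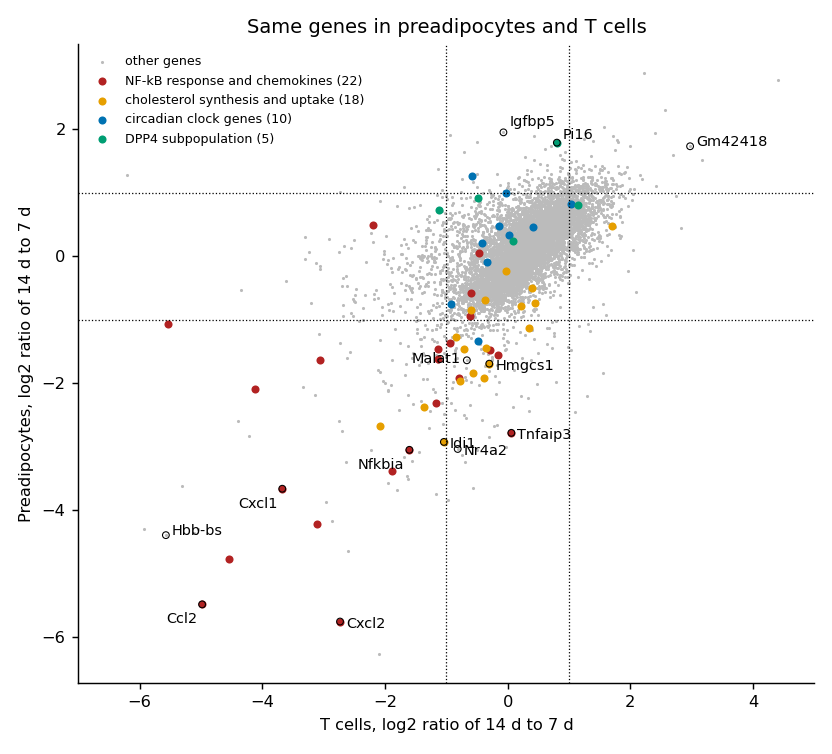
Log2 ratio of 14 d over 7 d in T cells (horizontal) and in preadipocytes (vertical) of the same 2 libraries, 1 point per gene with at least 5 CPM in both, with dotted lines at 2-fold. NF-κB response genes (22 shown) lie low on both axes in large part. Of the clock and DPP4 list genes shown (10 and 5), those past 2-fold in preadipocytes are not past 2-fold the same way in T cells. Other members were too low in T cells to be shown.

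Of 28 NF-κB response genes and chemokines tested, 19 were at least 2-fold higher at 7 d and 0 at 14 d, with a median log2 ratio of -1.59 against 0.18 over all genes, the lowest of the 35 lists used. Among the 19, 13 were shared with T cells, 6 of them above the spill-over level. Ccl2, a chemokine that draws monocytes (chromosome 11 from 82035571 to 82037453, GRCm38), came to 2209.6 CPM at 7 d and 49.2 CPM at 14 d, 44.9-fold higher at 7 d (95% CI 42.3 to 47.7). In T cells Ccl2 went from 86.1 to 2.72 CPM. Cxcl1, a chemokine for neutrophils (chromosome 5 from 90891241 to 90893115), had the highest level of the group, 3365 CPM at 7 d against 265 CPM at 14 d, a difference of 12.7-fold (95% CI 12.4 to 13.0). Cxcl2, which acts on the same receptor, came to 593 and 10.9 CPM, and here T cells held 144 CPM at 7 d and 21.6 CPM at 14 d. Counts of all 3 were thus lower at 14 d in both cell types. The T cell level of Ccl2 was one that spill-over could reach, and the part of spill-over in the T cell values was not tested. Ccl7 and Cxcl10, which attract monocytes and activated T cells, were 27.2-fold and 18.6-fold higher at 7 d. Ccl11, the eosinophil chemokine eotaxin, stayed at 209 and 199.8 CPM, and Cxcl12, a chemokine that preadipocytes make at rest, came to 246 and 344 CPM.

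The inhibitors that NF-κB induces to end its own activity moved with the chemokines. Nfkbia, which encodes IκBα, came to 1231 CPM at 7 d and 148 CPM at 14 d, 8.30-fold apart (95% CI 8.01 to 8.60), with 839.6 and 276 CPM in T cells. Tnfaip3, the ubiquitin-editing enzyme A20, was 6.89-fold higher at 7 d in preadipocytes, from 116 to 16.8 CPM, while T cells held 229.6 and 239 CPM. So Nfkbia was shared with T cells and Tnfaip3 was not. Of the surface adhesion molecules, Icam1 had 517 CPM at 7 d against 49.5 CPM at 14 d (10.4-fold), and Vcam1 had 255 against 82.2 CPM. Both were shared, but Vcam1 in T cells was at a level that spill-over could reach. Sele, E-selectin, came to 47.2 CPM at 7 d and 1.27 CPM at 14 d, 37.0-fold (95% CI 25.7 to 55.5). Sele is known from activated endothelium, and endothelial cells of these libraries, chosen by Pecam1 and Cdh5, held 94.8 CPM at 7 d and 22.2 CPM at 14 d, from 408 and 54 cells. Markers of endothelium in the gated preadipocytes summed to 24.9 CPM at 7 d and 9.36 CPM at 14 d, and their part in the result was not tested. The mediators Il6, Ptgs2, which makes prostaglandins, and Tnfaip6, a hyaluronan-binding protein, were 4.95-, 3.81- and 4.28-fold higher at 7 d.

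Promoters of this group are shown because 19 of its 28 tested members were past 2-fold the same way. A κB consensus on either strand within 250 bases before the start was found in 7.25% of all 32851 RefSeq promoters of GRCm38.p6, in at least 1 promoter of 8.23% of all genes, and in 10 of the 20 list genes whose promoter was in the table. Among the 13 of these 20 that were past 2-fold, 7 had a match. Lif, Csf1 and Nfkb2 also had a match but were within 2-fold, with log2 ratios of 0.39, 0.10 and 0.05. The sequences of 3 members run from 5′ to 3′ on the strand of the gene, with the matches in capitals. A match describes these letters only and is no evidence of binding.
Cxcl1, chr5:90890995-90891244, plus strand: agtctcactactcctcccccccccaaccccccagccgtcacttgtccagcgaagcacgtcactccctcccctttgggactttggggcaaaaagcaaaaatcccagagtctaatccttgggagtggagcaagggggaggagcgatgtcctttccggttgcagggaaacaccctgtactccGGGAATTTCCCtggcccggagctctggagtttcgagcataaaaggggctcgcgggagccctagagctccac
Cxcl2, chr5:90903649-90903898, plus strand: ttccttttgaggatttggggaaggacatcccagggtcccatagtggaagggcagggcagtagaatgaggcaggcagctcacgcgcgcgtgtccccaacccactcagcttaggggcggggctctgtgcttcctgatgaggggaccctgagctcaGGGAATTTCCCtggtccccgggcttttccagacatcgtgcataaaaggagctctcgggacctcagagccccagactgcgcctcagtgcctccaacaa
Nfkbia, chr12:55492648-55492897, minus strand: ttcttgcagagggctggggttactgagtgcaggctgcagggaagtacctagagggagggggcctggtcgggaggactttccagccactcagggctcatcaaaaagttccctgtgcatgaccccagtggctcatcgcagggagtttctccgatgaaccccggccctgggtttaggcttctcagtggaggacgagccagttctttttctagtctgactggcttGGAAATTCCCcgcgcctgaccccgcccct

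Immediate-early genes, the first to be transcribed after a stimulus, split into those that differed and those that did not. Of 26 genes, 12 were at least 2-fold higher at 7 d and 0 at 14 d (median log2 -0.89), and 5 of the 12 were shared with T cells. The well-known members Fos, Jun and Egr1 were among those within 2-fold: Fos came to 3147 and 2624 CPM, Egr1 to 2210.4 and 2381 CPM, and Jun to 2308 and 1572 CPM. Dusp1, a phosphatase that ends MAP kinase signalling, was higher at 14 d, with 533 and 714 CPM. Other members were past 2-fold. Gadd45b, a stress sensor and NF-κB target, came to 1418 CPM at 7 d and 78.5 CPM at 14 d, 18.1-fold apart. Ier3, which guards against death signals, was 14.7-fold higher at 7 d with 934 against 63.7 CPM. The stress factor Atf3 was 5.39-fold higher at 7 d, from 1062 to 197 CPM. Of the orphan nuclear receptors, Nr4a2 went from 119.5 to 14.5 CPM (8.22-fold), Nr4a3 from 52.3 to 10.5 CPM and Nr4a1 from 301 to 110.4 CPM. In T cells Nr4a2 came to 121 and 68.7 CPM, short of 2-fold. Egr3 went from 77.1 to 16.6 CPM in preadipocytes and the other way in T cells, from 18.3 to 44.8 CPM.

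Sele, Nr4a2, Tnfaip3 and Egr3 were among the 15 genes with the largest ratios towards 7 d that were not marked as shared, and the others follow. Of the 15, Sele, Lsmem1, Fjx1 and Itpkc were below 5 CPM in T cells and could not be read there, so that they are not shown to differ from T cells. At these low counts their T cell log2 ratios of 14 d over 7 d were -2.70, -2.44, -2.89 and -0.10. Lsmem1, a small membrane protein, came to 45.8 CPM at 7 d and 5.49 CPM at 14 d (8.34-fold), and Gm17056, a transcript that overlaps it on chromosome 12, to 134 and 18.5 CPM. Reads of such overlapping genes cannot always be told apart, so these values are uncertain. Csrnp1 (8.02-fold), Ier5 (6.39-fold), the interferon regulatory factor Irf1 (4.99-fold), the pseudokinase Trib1 (4.73-fold), the kinases Pim1 (4.73-fold) and Itpkc (4.71-fold) and Ppp1r15a (4.59-fold), which restores translation after stress, had such ratios too, but Itpkc was within 2-fold (log2 -0.94) in cells below the median share of immediate-early UMIs. Ppp1r15a had the highest level of these at 7 d, 428 CPM, and 93.3 CPM at 14 d, and Irf1 had 332 and 66.5 CPM. Pim1 and Irf1 missed the mark of shared genes narrowly. Their log2 ratios were -0.99 and -0.93 in T cells and -1.48 and -1.09 in B cells. In T cells those of Csrnp1, Ier5, Trib1 and Ppp1r15a were -0.03, -0.23, 0.33 and 0.22. Fjx1, a Golgi glycoprotein related to Drosophila four-jointed, was 5.53-fold higher at 7 d, and Noct, a phosphatase that is itself rhythmic, 6.35-fold. The largest ratios among shared genes were those of Pou3f1 (77.0-fold), Cxcl2 (54.2-fold), Ccl2, Ccl7 and Gch1 (25.2-fold), the entry enzyme of tetrahydrobiopterin synthesis. Genes of the interferon response and antigen presentation did not share the direction of Irf1: of 23, 1 was higher at 7 d (Irf1 itself) and 0 at 14 d, with a median log2 ratio of 0.04.

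Heat-shock genes had a median log2 ratio of -0.83, and 5 of 14 were at least 2-fold higher at 7 d. They were Hspb1, a small chaperone (57.0 and 13.7 CPM), Hspa5, the chaperone of the endoplasmic reticulum (877 and 392 CPM), Hsp90aa1, Hsp90ab1 and Dnaja1, and 3 of the 5 were shared. The inducible Hspa1a, whose reads can be split with its near copy Hspa1b, came to 268 and 146 CPM. The mitochondrial chaperones Hspd1 and Hspe1 lay within 2-fold.

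Of 18 genes of cholesterol synthesis and uptake, 11 were at least 2-fold higher at 7 d and 0 at 14 d, with a median log2 ratio of -1.36, and 3 of the 11 were shared with T cells. Hmgcs1, which makes HMG-CoA at the start of the pathway, came to 161 CPM at 7 d and 49.7 CPM at 14 d, 3.24-fold (95% CI 3.03 to 3.46), while T cells held 37.4 and 30.4 CPM. In the middle of the pathway, Idi1 was 7.61-fold and Fdps 5.19-fold higher at 7 d, both shared. Of the sterol-forming steps, Sqle was 3.80-fold, Cyp51 6.41-fold and Msmo1 3.89-fold higher at 7 d. Insig1, which holds the pathway back when sterols are plentiful, went from 65.1 to 26.8 CPM. The late enzyme Dhcr7 lay within 2-fold, at 4.21 and 5.89 CPM. Srebf1 and the fatty acid enzymes Fasn and Acaca, which belong to the neighbouring branch of lipid synthesis, were within 2-fold with log2 ratios of 0.86, 0.32 and 0.40. The motif TCACNCCAC, one form of the sterol element, was found on either strand in 1 of the 11 promoters of the group that the table held, that of Hmgcs1, and in 1.05% of all promoters or 1.22% of all genes.

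Of 11 early targets of SMAD signalling, 5 were at least 2-fold higher at 7 d and 0 at 14 d, with a median log2 ratio of -0.76. The median was -1.16 in cells with Pi16 or Dpp4 (0.14 over all genes) and -0.26 in cells without (0.23 over all genes). Id1, a target of BMP signals that blocks differentiation factors, came to 73.7 CPM at 7 d and 8.92 CPM at 14 d and was shared with T cells. Id3 came to 1266 and 319.7 CPM, 3.96-fold, while T cells held 145 and 131 CPM. Smad7, a feedback inhibitor of the pathway, was 3.51-fold higher at 7 d. Bambi, another such inhibitor but not one of the 11, was 2.21-fold higher at 7 d. The remaining Id genes lay within 2-fold, with log2 ratios of 0.07 for Id2 and -0.76 for Id4.

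Among the imprinted growth genes only 3 of 16 were past 2-fold, all higher at 7 d (median log2 -0.16). Dlk1, a membrane protein that holds preadipocytes undifferentiated (chromosome 12 from 109452823 to 109463336), came to 741, 244, 82.3, 13.3 and 3.68 CPM at 7, 14, 18, 21 and 28 d. The 7 d level was 3.04-fold that of 14 d (95% CI 2.95 to 3.13). Mest was 2.52-fold and Cdkn1c, a cell cycle inhibitor, 2.02-fold higher at 7 d. Dlk1 and Cdkn1c counted as shared, but T cells held only 15.2 CPM of Dlk1 at 7 d and 25.5 CPM of Cdkn1c, both at a level that spill-over could reach. Igf2, the fetal growth factor, came to 56.9 and 29.4 CPM, just within 2-fold. H19, an RNA of the same locus, was not lower at 14 d, with 1796 CPM at 7 d, 1994 CPM at 14 d and then 907, 352 and 72.7 CPM at 18, 21 and 28 d. Of embryonic and fetal stromal genes 1 of 9 was higher at 7 d, Sox11 (28.7 and 12.3 CPM), and the median log2 ratio was -0.05.

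The 15 genes with the largest ratios towards 14 d that were not marked as shared were chosen by the same rule. Of these 15, 11 were below 5 CPM in T cells and could not be read there, among them Dact2, Xdh, Gda, Gpx3 and Snx33, so that they are not shown to differ from T cells. At these low counts the T cell log2 ratios of the genes just named were 2.92, 1.94, 1.70, 0.33 and 1.11. Among the rest of the 11, Col4a4 had 1.20 and Ackr1 -0.92, and Spock2, Adh1, Gm26771 and Smpd3 lay between 0.43 and 0.61. Dact2, a cytoplasmic regulator of Wnt and TGFβ signalling and one of the DPP4 list, came to 3.19 CPM at 7 d and 57.5 CPM at 14 d, 18.1-fold higher at 14 d (95% CI 14.6 to 22.5). Xdh, an enzyme of purine breakdown, came to 11.0 and 81.0 CPM (7.39-fold, 95% CI 6.56 to 8.34), and Gda, guanine deaminase, one step before it, to 9.25 and 53.3 CPM (5.77-fold). So adjacent steps of purine breakdown were both higher at 14 d. Gpx3, a secreted glutathione peroxidase, came to 65.5 and 307 CPM (4.69-fold, 95% CI 4.46 to 4.94). Adh1, an alcohol and retinol dehydrogenase, was 3.34-fold higher at 14 d, but its log2 ratio was 0.58, within 2-fold, in cells below the median share of immediate-early UMIs. Of receptors, Calcrl, which binds CGRP and adrenomedullin, went from 13.2 to 49.0 CPM, and Ackr1, a chemokine sink best known from venules and red cells, from 26.5 to 94.3 CPM. Esr1, the oestrogen receptor and not among the 15 largest ratios, was 2.85-fold higher at 14 d, and the glucocorticoid receptor Nr3c1 had 186 and 233 CPM. Col4a4 (3.54-fold), the testican Spock2 (3.42-fold) and the sorting nexin Snx33 (3.42-fold) completed the matrix and trafficking genes of the rule. Gm26771 (4.59-fold) overlaps the end of Sfrp2 on chromosome 3, so its reads are uncertain. In cells without Pi16 or Dpp4 the log2 ratios of Gm26771 and Ackr1 were 0.73 and 0.66, within 2-fold.

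Of 15 genes that mark the DPP4 subpopulation, 7 were at least 2-fold higher at 14 d and 0 at 7 d, with a median log2 ratio of 0.96. In T cells 5 of the 15 could be read, and 0 were shared. The median was 0.62 in cells with at least 2 UMIs of Pi16 and Dpp4 (0.14 over all genes) and 0.05 in cells with none (0.23 over all genes). Pi16 and Dpp4 are themselves on the list, so these medians depend in part on the choice of cells. The study used some of these markers to name its own clusters of the same cells, so the list is not independent evidence. Pi16, a secreted peptidase inhibitor (chromosome 17 from 29317680 to 29330593), came to 380.4 CPM at 7 d and 1315 CPM at 14 d, 3.46-fold (95% CI 3.38 to 3.53), against 6.30 and 11.0 CPM in T cells. Ackr3, a scavenger of Cxcl12, was 3.09-fold higher at 14 d with 93.5 and 289 CPM, and Smpd3, a sphingomyelinase, 4.70-fold. The other members past 2-fold were Efhd1, Akr1c18 and Limch1 besides Dact2. Dpp4 itself, the protease that names the subpopulation, came to 147 and 258 CPM, and Wnt2 to 91.5 and 112 CPM, both within 2-fold. With ratios divided by their median, 5 of the 15 remained past 2-fold. The ICAM1 list had 1 gene higher at 14 d, Ggt5, and 2 at 7 d, Icam1 and Vcam1, of 14 tested. Ggt5, Icam1 and Vcam1 were all shared. The median of the list was -0.00, but the medians were -0.64 in cells with Pi16 or Dpp4 (6 genes higher at 7 d) and 0.59 in cells without (3 higher at 14 d and 2 at 7 d). Over all genes tested in cells with, 345 of 9441 were higher at 7 d. In cells without, 840 of 9704 were higher at 14 d and 332 at 7 d. The F3 list had 4 higher at 14 d (Mgp, Mmp3, Gdf10 and Igfbp3) and 1 at 7 d (Rgs2) of 12. F3, the tissue factor gene of the third subpopulation, came to 108 and 117 CPM.

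Of 16 genes of the growth hormone and IGF axis, 4 were higher at 14 d and 2 at 7 d. Igfbp5, which binds IGFs in the matrix (chromosome 1 from 72857932 to 72874884), came to 412 CPM at 7 d and 1592 CPM at 14 d, 3.87-fold (95% CI 3.79 to 3.95), while T cells held 51.5 and 49.0 CPM. Igfbp3, the main carrier in serum, came to 142 and 442 CPM (3.11-fold). Igfbp7, which was shared with T cells, went the other way, from 1810.3 to 905 CPM, while Igfbp4 (769 and 661 CPM) and Igfbp6 (916 and 1058 CPM) stayed close. Pappa, a protease that frees IGF from its binding proteins, was low at both ages, 3.49 and 9.80 CPM. Of the ligands, Igf1 came to 266 and 486 CPM, within 2-fold. Among receptors, Insr went from 16.2 to 37.1 CPM, past 2-fold, and Igf1r and Ghr had log2 ratios of 0.60 and 0.82. Cish, a STAT5-induced inhibitor of cytokine and growth hormone signals, was 4.24-fold higher at 7 d.

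**Figure D2:**
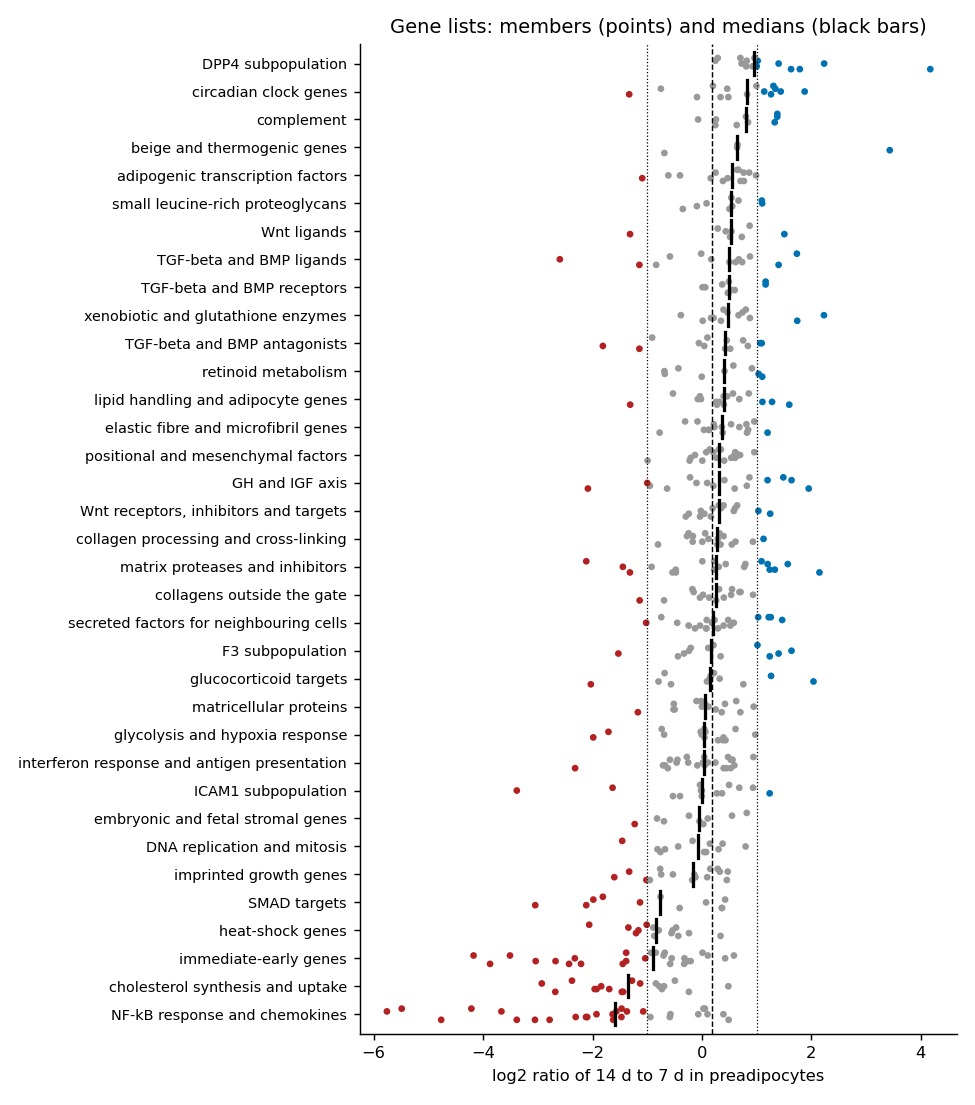
Log2 ratio of 14 d over 7 d in preadipocytes for the members of 35 gene lists, 1 point per gene tested, with black bars at the medians, a dashed line at the median of all genes (0.18) and dotted lines at 2-fold. Blue points are at least 2-fold higher at 14 d and red points at least 2-fold higher at 7 d, and the medians run from -1.59 for NF-κB response genes to 0.96 for the DPP4 list.

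Genes of the extracellular matrix outside the gate lay for the most part within 2-fold. Of 15 other collagens, 1 was past 2-fold, Col12a1, with 109 CPM at 7 d and 49.5 CPM at 14 d. Elastic fibre and microfibril genes had 1 of 17 past 2-fold, Efemp1 (249 and 572 CPM), and small leucine-rich proteoglycans 2 of 9, Prelp and Podn, both higher at 14 d by ratios that did not reach 2-fold once divided by the median. Of 15 matricellular genes, Thbs1 was higher at 7 d (262 and 116 CPM). Of 17 genes of collagen processing, Pcolce2 was higher at 14 d (289.9 and 632 CPM), but not past 2-fold after division by the median. Of 20 matrix proteases and inhibitors, 6 were higher at 14 d and 3 at 7 d, and 1 of these 9 was shared, at a level that spill-over could reach. Mmp2, gelatinase A, came to 315 CPM at 7 d and 934 CPM at 14 d (2.97-fold, 95% CI 2.89 to 3.04), Mmp3, stromelysin 1, to 42.1 and 99.4 CPM, and Mmp27 to 3.08 and 13.7 CPM. Adamts15, Plau and the inhibitor Timp3 were also higher at 14 d. Adamts1 and Adamts4 were higher at 7 d, and Mmp14, the activator of Mmp2, came to 385 and 276 CPM. Has1, a hyaluronan synthase on no list, was chosen after its value was seen and came to 299 CPM at 7 d and 76.9 CPM at 14 d.

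In the TGFβ and BMP families, ligands, receptors and antagonists each held a few genes past 2-fold. Over all genes tested the shares were 6.05% towards 14 d and 3.40% towards 7 d. Counts of a few genes, here and in the other lists, are therefore no result about a list. Of 13 ligands, Bmp7 (16.9 and 56.2 CPM) and Gdf10 (77.1 and 204 CPM) were higher at 14 d, and Bmp2 (35.0 and 15.9 CPM) and Gdf15, a stress cytokine shared with T cells (23.7 and 3.91 CPM), at 7 d. Of 10 receptors, Tgfbr2 (149 and 334 CPM) and the co-receptor Tgfbr3 (93.4 and 209 CPM) were past 2-fold towards 14 d, but not after division by the median. Of 13 antagonists, Chrd and Twsg1 were higher at 14 d, but not past 2-fold after division by the median, and Smad7 and Bambi at 7 d. Of 8 Wnt ligands, Wnt10b, an inhibitor of adipogenesis, was higher at 14 d (14.0 and 39.8 CPM) and Wnt6 at 7 d (9.18 and 3.69 CPM). Among 15 genes of Wnt receptors, inhibitors and targets, the receptor Fzd7 (13.1 and 31.0 CPM) and the secreted Sfrp2 (353 and 722 CPM) were higher at 14 d. Of 20 secreted factors for neighbouring cells, Vegfd, Fgf2, Il34 and Sema3a were higher at 14 d and Pdgfa at 7 d, and 1 of these 5 was shared. Vegfa had 65.9 and 98.7 CPM.

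Complement genes had a median log2 ratio of 0.80, and 3 of 9 were at least 2-fold higher at 14 d. C3, the central component, came to 12.5 and 32.4 CPM, and C4b to 30.0 and 77.9 CPM. The C1 inhibitor Serping1, at 762 and 1330.1 CPM, lay within 2-fold. In T cells the summed level of C3 went the opposite way, from 9.52 to 4.34 CPM, but few T cells held it. The share of T cells with a UMI of C3 was level, at 1.23% at 7 d and 1.26% at 14 d. Retinoid metabolism had 2 of 9 genes past 2-fold, the retinaldehyde dehydrogenases Aldh1a1 (18.1 and 38.7 CPM) and Aldh1a3 (55.6 and 114 CPM), both higher at 14 d. Neither reached 2-fold after division by the median. Xenobiotic and glutathione enzymes had 2 of 13, Gpx3 and Adh1.

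Of 15 genes of the circadian clock, 6 were at least 2-fold higher at 14 d and 1 at 7 d, with a median log2 ratio of 0.83, and 0 of the 7 were shared with T cells. The repressor Per3 came to 27.1 CPM at 7 d and 68.7 CPM at 14 d (2.53-fold, 95% CI 2.32 to 2.76), Per1 to 20.8 and 49.8 CPM, and Per2 to 5.55 and 12.2 CPM. The nuclear receptor Nr1d1, REV-ERBα, went from 10.1 to 25.0 CPM, the output factor Hlf from 4.32 to 15.9 CPM and Bhlhe41 from 7.40 to 20.1 CPM. The PAR factors Dbp and Tef, which the clock drives in phase with Nr1d1, went the same way within 2-fold, with log2 ratios of 0.83 and 1.00. The activator Arntl, BMAL1, which peaks in antiphase to these genes, was level, with 16.9 and 15.9 CPM. Bhlhe40 was the member higher at 7 d, 98.9 and 39.3 CPM. In T cells 10 of the 15 could be read, with a median log2 ratio of -0.24, among them Per1 with 51.2 and 34.4 CPM. Not every member was lower at 14 d there. With all cells thinned at random to an equal number of UMIs, Dbp was found in 2.52% of T cells at 7 d and 5.54% at 14 d. In preadipocytes thinned alike the shares were 8.80 and 13.4%. Dbp was within 2-fold in preadipocytes and so was not among the 7. Per3, at 2.30 and 3.40 CPM, was too low there to be read, so that it is not shown to differ from T cells. The time of day of collection is not given in the sources used here.

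The E-box CACGTG, the site of the clock activators, was present in 6.02% of all promoters within 250 bases before the start, in 6.86% of all genes and in 4 of the 13 clock genes with a promoter in the table (Per1, Tef, Cry1 and Bhlhe41). The D-box TTANGTAA, searched on both strands, was in 2.06% of all promoters, in 2.44% of all genes and in 1 of the 13, Per3. The promoter of Per1 is shown as the member past 2-fold at the highest level among those with an E-box, with the match in capitals.
Per1, chr11:69098699-69098948, plus strand: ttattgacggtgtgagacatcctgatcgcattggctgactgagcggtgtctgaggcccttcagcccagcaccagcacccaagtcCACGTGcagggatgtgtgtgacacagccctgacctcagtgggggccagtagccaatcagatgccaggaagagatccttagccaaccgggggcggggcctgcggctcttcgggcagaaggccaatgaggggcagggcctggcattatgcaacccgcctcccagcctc

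Over all gated cells, 1 of 14 adipogenic transcription factors was past 2-fold, Cebpb, an early activator of the programme, with 401 CPM at 7 d and 188 CPM at 14 d. Pparg, the master regulator, came to 16.3 and 12.3 CPM, and Cebpa to 10.2 and 16.7 CPM. Zfp423, a factor of committed preadipocytes, was just within 2-fold (11.4 and 22.7 CPM). Of 17 genes of lipid handling, 3 were higher at 14 d and 1 at 7 d, and 2 of these 4 were shared. Scd1, a fatty acid desaturase, came to 28.9 and 87.5 CPM, and Scd2, which was shared with T cells, to 117 and 251 CPM. Car3, an abundant product of mature adipocytes, came to 4.59 and 11.2 CPM, and in T cells went from 37.8 to 0.511 CPM. Few cells held it: the shares with a UMI of Car3 were 2.81 and 3.12% of preadipocytes and 1.40 and 0.275% of T cells. Fabp5 was higher at 7 d (128 and 51.5 CPM), Fabp4 had 290.0 and 201 CPM and Lpl 825 and 1324 CPM. Of 4 beige and thermogenic genes that could be tested, Cox8b, a subunit of cytochrome oxidase found in brown and beige fat, was higher at 14 d with 1.54 and 16.6 CPM. In cells without Pi16 or Dpp4, 4 of the 14 adipogenic factors were at least 2-fold higher at 14 d (median log2 0.84, against 0.39 in cells with). The medians of the lipid list were 0.66 without and 0.17 with, and those of the 4 beige genes 1.18, with 2 past 2-fold, and 0.19. Over all genes tested in cells without, 840 of 9704 were at least 2-fold higher at 14 d, with a median log2 ratio of 0.23. In cells with, they were 431 of 9441, with a median of 0.14.

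Of 19 Hox and mesenchymal factors, 0 were past 2-fold in either direction, with a median log2 ratio of 0.31, and 1 was higher at 7 d after division by the median. Hoxc10, a marker of the inguinal depot, came to 52.8 and 63.6 CPM, and Prrx1 to 374 and 463 CPM. Of 12 genes of DNA replication and mitosis, in cells chosen without Mki67, 1 was higher at 7 d, Stmn1 (33.0 and 12.0 CPM). Of 15 genes of glycolysis and hypoxia, Hk2 (132 and 33.4 CPM) and Ndrg1 were higher at 7 d, and 1 of these 2 was shared. Gapdh had 361 and 217 CPM. Of 12 glucocorticoid targets, Per1 and Zbtb16 were higher at 14 d and Cdkn1a, which was shared with T cells, at 7 d. Tsc22d3 and Sgk1 lay within 2-fold with opposite signs (0.76 and -0.68 on the log2 scale). Zbtb16 (5.04 and 20.7 CPM) was shared with T cells, as were Slc7a5, a transporter of large amino acids (7.40-fold), Usp50 (4.96-fold), AC160336.1 (6.87-fold) and Gm9844 (3.85-fold), the largest shared ratios towards 14 d. Gm9844 resembles other loci and its reads may be split.

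Other RNA that moved with the libraries bears on how these ratios can be read. Hbb-bs, the β-globin of red cells, came to 1125 CPM at 7 d and 53.4 CPM at 14 d in preadipocytes, 899.6 and 18.9 CPM in T cells and 2341 and 7.32 CPM in B cells. Gm42418, which overlaps ribosomal RNA, went from 4368 to 14512 CPM in preadipocytes and from 2666 to 20931 CPM in T cells. Both thus moved the same way in cells of different kinds. Mast cell genes such as Cma1 (26.1 and 2.77 CPM) and the muscle actin Acta2 (107 and 29.3 CPM), a mural marker, were also lower at 14 d, and their part in the ratios of other genes was not tested. Without cells holding any UMI of 9 markers of T, B, endothelial, mural or Schwann cells, 535 genes were higher at 14 d and 285 at 7 d.

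The gated cells were also split by their UMIs of Pi16 and Dpp4. Cells with at least 2 UMIs of Pi16 and Dpp4 were 886 of 2418 (36.6%, 95% CI 34.7 to 38.6) at 7 d and 933 of 1763 (52.9%, 95% CI 50.6 to 55.3) at 14 d, at median depths of 13204.5 and 14586 UMIs. Cells with none were 1249 (51.7%) and 680 (38.6%), at 10731 and 11324 UMIs. Pi16 itself was 3.46-fold higher at 14 d, so more cells of one kind and more Pi16 per cell cannot be told apart here. Of the 584 genes higher at 14 d, 263 (45.0%) were past 2-fold in both kinds, 101 only in cells with Pi16 or Dpp4, 161 only in cells without and 59 in neither, and 23 had opposite signs. Of the 328 genes higher at 7 d, 232 (70.7%) were past 2-fold in both, 62 only in cells with, 29 only in cells without and 5 in neither. Igfbp3 came to 252 and 457 CPM in cells with Pi16 or Dpp4 and to 58.6 and 422 CPM in cells without, so its difference lay mainly in the latter. Mmp3 went from 23.2 to 27.8 CPM with and from 50.0 to 198 CPM without. Igfbp5, Gpx3 and Mmp2 were past 2-fold in both, with ratios of 2.75 and 6.23, 3.54 and 4.86, and 2.46 and 3.43. Sfrp2 was within 2-fold in both, at 699 and 1154 CPM with and 94.9 and 86.2 CPM without, and like Sema3a, Limch1 and Plau it was lower at 14 d in cells without. Towards 7 d, Ccl2 was 64.6-fold higher in cells with and 33.1-fold in cells without, and Dlk1 5.50-fold and 1.94-fold. The cholesterol list had a median log2 ratio of -1.96 with and -0.78 without, the NF-κB list -1.91 and -1.44, and the clock list 0.62 and 0.83. Over all genes tested in each kind the medians were 0.14 with and 0.23 without.

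**Figure D3:**
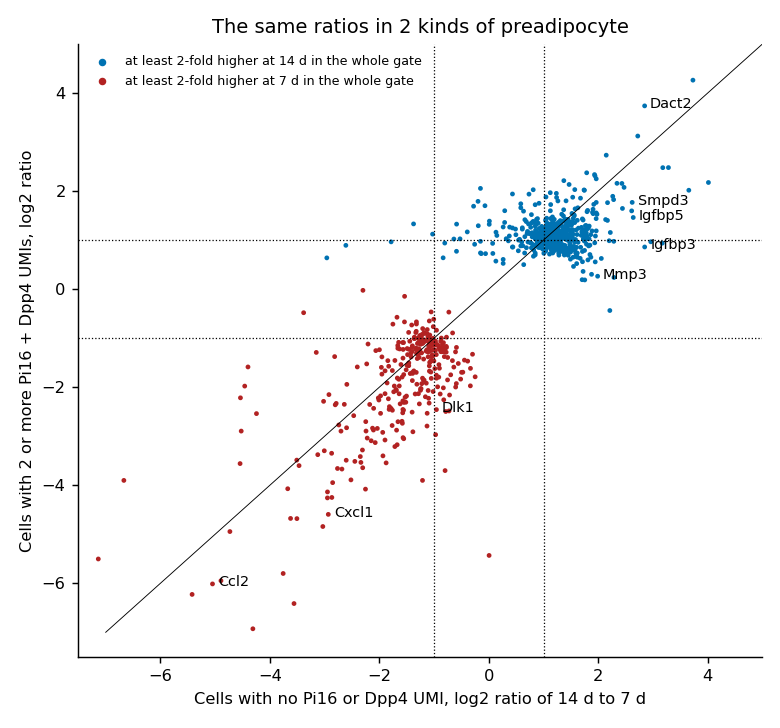
Log2 ratio of 14 d over 7 d in preadipocytes without a UMI of Pi16 or Dpp4 (horizontal) and with at least 2 (vertical), 1 point per called gene, with a count of 0 set to 3 UMIs. Most genes higher at 7 d lie past 2-fold on both axes (232 of 328), against 263 of 584 genes higher at 14 d.

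Summed levels do not show whether more cells held a gene or each held more of it. After random thinning to 3000 UMIs per cell, which left out 67 cells at 7 d and 43 at 14 d, Cxcl1 was found in 72.1% of preadipocytes at 7 d (95% CI 70.2 to 73.9) and 20.5% at 14 d (95% CI 18.6 to 22.5). Without thinning the shares were 83.3 and 29.0%. In T cells thinned alike, of a median 4957.5 and 5201 UMIs, Cxcl1 was found in 19.2 and 1.23% of 6377 and 1625 cells, and the part of free RNA in the 7 d share was not tested. Ccl2 was found in 52.1 and 5.00% of preadipocytes (67.1 and 8.68% unthinned) and 13.5 and 0.492% of T cells. A UMI of either chemokine was thus found in most preadipocytes at 7 d and in a minority at 14 d. The thinned preadipocytes that held one also held fewer UMIs of it, with means of 11.8 and 2.87 for Ccl2 and 13.1 and 4.04 for Cxcl1. A lower level per cell also lowers the share with a UMI, so fewer cells and less per cell cannot be told apart here. Dlk1 was found in 56.4 and 26.4% (76.3 and 40.3% unthinned), and Id3 in 79.3 and 45.3% (92.9 and 74.6% unthinned). Towards 14 d, Igfbp5 was found in 27.0 and 51.6% (39.3 and 62.5% unthinned) against 5.41 and 4.62% of T cells, and Gpx3 in 13.4 and 39.7% (27.6 and 58.3% unthinned) against 0.439 and 0.677%. Mmp2 was found in 54.7 and 83.5% (83.5 and 96.2% unthinned) and in 1.66 and 1.91% of T cells, so that it was present in most preadipocytes at both ages. Hbb-bs, which preadipocytes are not known to make, was found in 26.9 and 0.872% of them (68.9 and 2.21% unthinned) and in 45.7 and 0.985% of T cells.

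**Figure D4:**
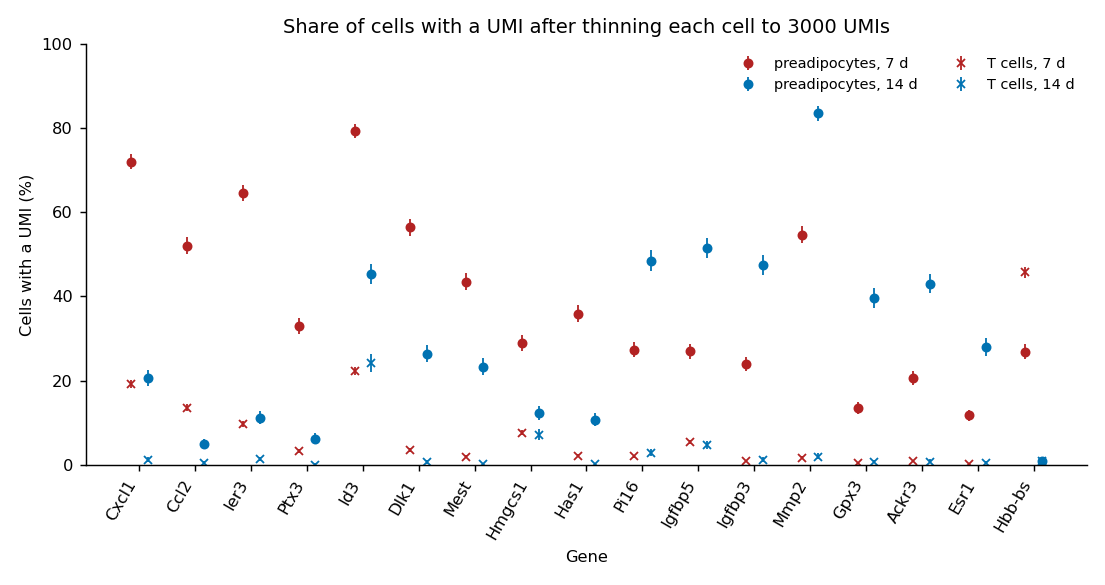
Percent of cells with at least 1 UMI of 17 genes after thinning to 3000 UMIs per cell, at 7 d and 14 d, in preadipocytes (circles) and T cells (crosses), with 95% Clopper-Pearson intervals. Cxcl1 and Ccl2 were found in most preadipocytes at 7 d and in a minority at 14 d (Cxcl1 72.1 and 20.5%), while Igfbp5, Gpx3 and Mmp2 lie higher at 14 d and stay under 6% in T cells.

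The later ages place these differences. Chemokines were low at 18 d and higher at 21 d: Ccl2 came to 26.2, 272 and 69.7 CPM and Cxcl1 to 138, 791 and 231 CPM at 18, 21 and 28 d, with 21 d above its neighbours. Hmgcs1 came to 37.5, 92.4 and 27.3 CPM and Fdps to 5.06, 91.6 and 18.7 CPM, again with 21 d above both, and for Fdps above 7 d as well. T cells at 21 d held more stromal RNA than at other ages (6.48% of the preadipocyte level for the 10 stromal genes). Nr4a2 and Sele did not return, with 4.83, 8.69 and 5.18 and 0.545, 1.31 and 0.250 CPM. Of the genes higher at 14 d, Igfbp5 stayed near its 14 d level with 1695, 1779.7 and 1860.5 CPM, and Ackr3 with 254, 345 and 352 CPM did likewise. C3 went on to 191, 436 and 947 CPM, Mmp3 to 183, 308 and 353 CPM and Sfrp2 to 1134, 1292 and 1621 CPM, with the highest level of each at 28 d. Dact2 was highest at 14 d and came to 35.5, 6.31 and 13.9 CPM, and Igfbp3 was highest at 18 d with 723, 232 and 244 CPM. The clock genes went back, Per3 to 52.4, 9.44 and 11.2 CPM and Hlf to 12.0, 3.97 and 2.68 CPM, while Arntl, at 14.2, 21.8 and 25.5 CPM, was higher at 21 and 28 d than at 14 and 18 d. Pi16 came to 1328, 840.3 and 1901 CPM and Gpx3 to 462, 325 and 932 CPM, both highest at 28 d.

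**Figure D5:**
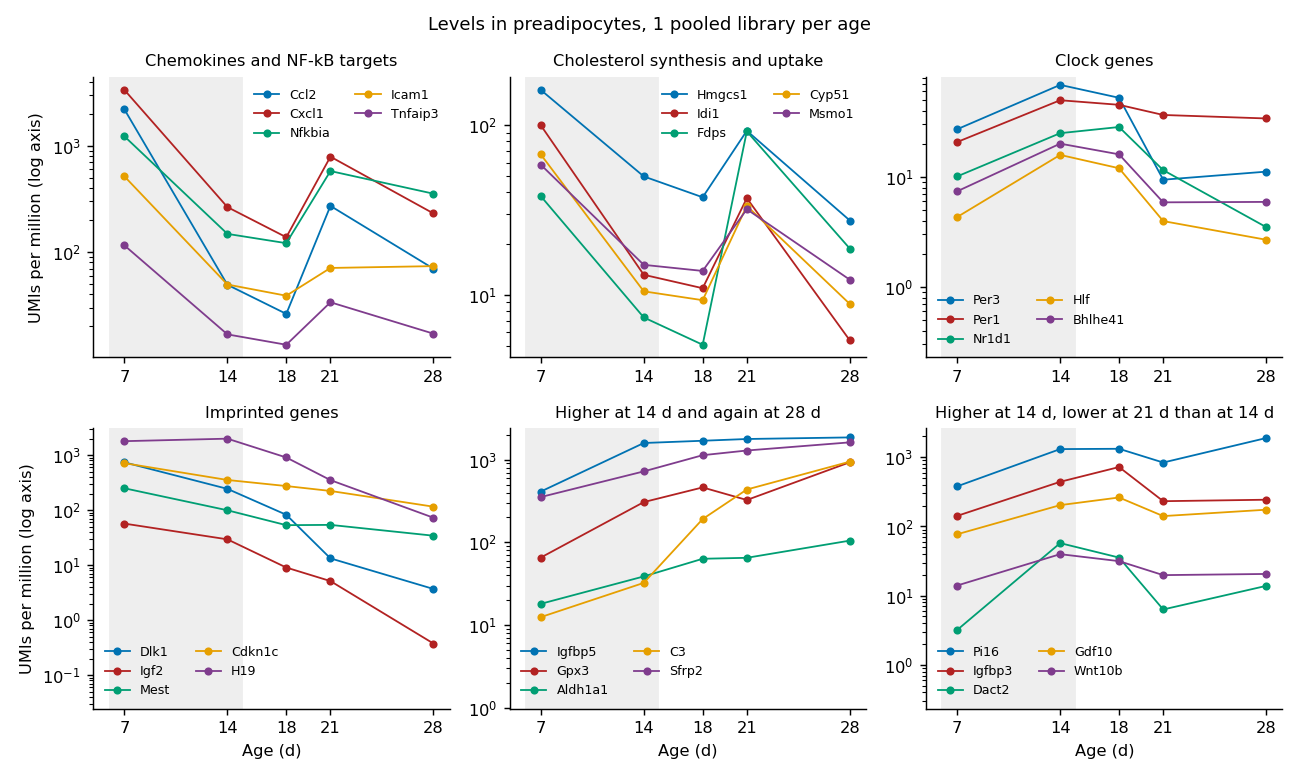
Level in preadipocytes (CPM, log axis) at 7, 14, 18, 21 and 28 d for 30 genes in 6 panels, 1 library per age, with a grey band over 7 d to 14 d. NF-κB and cholesterol genes are lower at 14 d than at 7 d and higher at 21 d than at 18 d, clock genes are high at 14 and 18 d, Dlk1 and Igf2 are lowest at 28 d, and Igfbp5 and C3 are highest there or close to it.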

How the data were processed

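Per the paper's methods, the authors mapped the reads of the 5 libraries to GRCm38 with Cell Ranger (3.1.0 in the submitters' processing notes), removed doublets with Scrublet and kept cells with 200 to 6000 genes and at most 20% mitochondrial UMIs. The deposited file holds these raw UMI counts, not normalized. No doublet caller was run again. Each cell's library came from its barcode suffix. Counts were summed over the gated cells and scaled to 1000000, with numpy 2.4.6, scipy 1.17.1 and pandas 2.3.3. T cells counted as readable for a gene at a mean of 5 CPM. Ratios have exact conditional and shares Clopper-Pearson 95% intervals, and the ratio script was checked on simulated data with 200 changed genes. Named genes were the 15 largest ratios each way among genes with at least 20 CPM outside other cell types' lists and not marked as shared with T cells, the 5 largest shared ones each way, and members of 35 gene lists. The members and lists were chosen with earlier results of these data known. Promoters came from RefSeq (GRCm38.p6). The alternatives were 14, with 2 added after seeing the data. Some genes are not reported here, and bulk data, protein and staining were not analysed here.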

Additional observations from a re-analysis of the deposited data

Results flagged for a closer look

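A difference in direction between preadipocytes and T cells of the same libraries drew attention to 12 genes that were past 2-fold in both cell types in opposite directions. The values are the log2 ratio of 14 d over 7 d in preadipocytes minus that in T cells, and this difference was not tested, since each age was 1 library. Lower at 14 d in preadipocytes and higher in T cells were Runx1 (-3.55), Egr3 (-3.50), Nfatc2 (-3.39), H2-Aa (-2.53), Batf3 (-2.52), Cd74 (-2.38) and Cd44 (-2.26). Runx1, a transcription factor of blood and connective tissue cells, came to 17.1 and 3.12 CPM at 7 d and 14 d in preadipocytes and to 59.8 and 128 CPM in T cells. Cd44, the hyaluronan receptor, came to 206 and 95.9 CPM in preadipocytes and to 44.5 and 99.1 CPM in T cells. H2-Aa and Cd74 belong to antigen-presenting cells and were below 20 CPM in preadipocytes at both ages. Higher at 14 d in preadipocytes and lower in T cells were Car3 (7.49), Mgp (3.76), Timp3 (2.78), C3 (2.51) and Gpr146 (2.12). The values of Car3 and C3 rest on few cells. After thinning, C3 was found in 0.721% of T cells at 7 d and 0.677% at 14 d, with means of 2.13 and 2.18 UMIs. Its fall in T cells was thus not seen in the thinned cells. Car3 was found in 1.19 and 1.45% of thinned preadipocytes, with overlapping intervals, and in 0.784 and 0.246% of thinned T cells. Mgp, an inhibitor of calcification, came to 471 and 951 CPM in preadipocytes and to 25.6 and 3.83 CPM in T cells. The stromal genes Mgp and Timp3 were at low levels in T cells at both ages, where 10 other stromal genes had a median of 1.63 and 0.637% of the preadipocyte level, and the part of spill-over in these values was not tested.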

How the results depend on the processing

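With ratios divided by their median 284 genes were higher at 14 d. With genes of a mean of at least 1 CPM tested, 959 were higher at 14 d and 595 at 7 d, with at least 20 CPM 232 and 201, and with a limit of 1.5-fold 2217 and 955. The other settings tried, which changed the gate, the cell filter, the depth, the weight of a cell or the kind of cell, left 431 to 840 genes higher at 14 d and 304 to 410 or, without cells holding UMIs of another type, 285 at 7 d. The lowest and the highest count at 14 d were those of cells with and without Pi16 or Dpp4. The genes called were in part not the same. In cells below the median share of immediate-early UMIs, 373 of the 584 genes higher at 14 d and 192 of the 328 higher at 7 d were still called. In cells with Pi16 or Dpp4 343 and 262 were still called, and in cells without 394 and 254. Of the genes named for the size of their ratio, none changed its direction under the other settings tried, but several calls of 2-fold were lost. In cells below the median share of immediate-early UMIs the log2 ratio of Itpkc was -0.94 and that of Adh1 0.58, and Sele went from -5.21 to -3.18. In cells without Pi16 or Dpp4 the log2 ratio of Gm26771 was 0.73 and that of Ackr1 0.66. Among the list genes named, the ratios of Sfrp2, Sema3a, Limch1 and Plau turned to lower at 14 d in cells without Pi16 or Dpp4 (Sfrp2 to -0.14 on the log2 scale). The cause was not tested. No paired analysis was possible because each age was 1 library. No library could be left out for the same reason, and the precision beyond counting error, among animals or libraries, is unknown.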
